A study of Danio rerio with 9 samples.

Results

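Zebrafish eggs are loaded in the ovary with messenger RNA that the embryo later removes. Here 8 such maternal transcripts were followed across wild-type embryos and embryos with a knockout of kdm4aa or of kdm4ab: zp3b, gdf9, bmp15, zar1, cth1, cldnd, btg4 and org. They were found by matching these 8 symbols, ignoring case, to the Ensembl gene names of the deposited counts, and 8 of 8 matched 1 identifier among 32520 genes. The name table writes gdf9, zar1 and btg4 in capitals. The question was whether leftover maternal messages stood higher in either knockout, as slower removal would leave them.

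The libraries were made from poly-A RNA of embryos, with 3 libraries for each of 3 genotypes: wild type, labelled WT, the kdm4aa knockout and the kdm4ab knockout. kdm4aa and kdm4ab encode histone demethylases of the KDM4 family, and the study set out from slow development and cell death in kdm4aa knockout embryos. The stage of the embryos, their strain, the genotype of their mothers, the alleles and the number of embryos per library were not given in the sources used here. No library of unfertilised eggs was among the samples, so that these transcripts are maternal is background and was not measured here.

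In many animals the first cell divisions run on RNA and protein that the mother stored. Maternal messages are then stripped of their poly-A tails by the CCR4-NOT deadenylase, decapped and degraded, partly by factors already in the egg and partly by products of the newly active zygotic genome, among them the microRNA miR-430 in zebrafish. Genes for the egg coat and for oocyte growth factors serve the ovary, and their messages in an early embryo are usually taken as remnants of oogenesis.

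All 9 libraries held between 27894551 and 46156237 counts, and the 8 transcripts had between 618 counts (bmp15 in wild type replicate 1) and 70105 counts (cldnd in kdm4ab knockout replicate 2) per library. The kdm4ab knockout replicate 2 library stood apart: a count was seen for 14247 genes in it and for 22025 to 23019 genes in each of the other 8. It correlated with the other libraries of its group at 0.875 and 0.888 across genes, on log2(CPM + 1), where the remaining pairs within a group reached 0.995 to 0.996. With it the biological coefficient of variation of the fit was 47.5%, and without it 13.1%, so results are given with all 9 libraries and with the 8 others. The kdm4ab message was at 2.38, 0 and 2.22 CPM in its own knockout where wild type had 139 ± 25.5 CPM (SD, n = 3). By contrast kdm4aa was at 16.6 ± 1.65 CPM in its knockout and 19.1 ± 1.34 CPM in wild type (log2 −0.20, adjusted p 0.961). The level of kdm4aa therefore gives no check of the kdm4aa knockout label. CPM values were computed from the counts after TMM scaling, and every adjusted p is from edgeR's quasi-likelihood F-test with Benjamini-Hochberg adjustment over all genes tested. A gene is said to rise or fall where that adjusted p is under 0.05.

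Some of the maternal transcripts rose in each knockout, cldnd in both. Against wild type, cth1 and cldnd rose in the kdm4aa knockout, 2 of 8, where 4.33% of 18998 tested genes rose and 8.88% were called in either direction. In the kdm4ab knockout zp3b, gdf9, bmp15 and cldnd rose, 4 of 8, where 8.97% of tested genes rose and 17.0% were called in either direction. The fitted log2 fold change was above 0 for 8 of 8 transcripts in each comparison, with a median of 0.30 in the kdm4aa knockout and 1.16 in the kdm4ab knockout, beside −0.00 and −0.03 over all genes tested. Both comparisons use the same 3 wild-type libraries, so they are not independent of each other. In bulk RNA of embryos a higher share of a cell type and more RNA per cell cannot be told apart, nor can a lower share and less RNA per cell.

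Without kdm4ab knockout replicate 2 more of the 8 passed, and so did more of all genes. In the kdm4aa knockout zp3b, zar1, cth1, cldnd and org rose, 5 of 8, against 23.3% of genes higher and 46.8% called in either direction. In the kdm4ab knockout zp3b, gdf9, bmp15, cldnd, btg4 and org rose, 6 of 8, against 25.3% higher and 49.5% in either direction. The medians were then 0.30 and 0.53, so that of the kdm4aa knockout did not move at this precision and that of the kdm4ab knockout was lower than with all libraries. By the libraries themselves, 6 of 8 transcripts (zp3b, gdf9, zar1, cth1, cldnd and org) lay above all wild-type libraries in all 3 kdm4aa knockout libraries, which held for 28.7% of tested genes. In the kdm4ab knockout 6 of 8 (zp3b, gdf9, bmp15, cldnd, btg4 and org) did so, against 17.9% of tested genes.

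**Figure D1:**
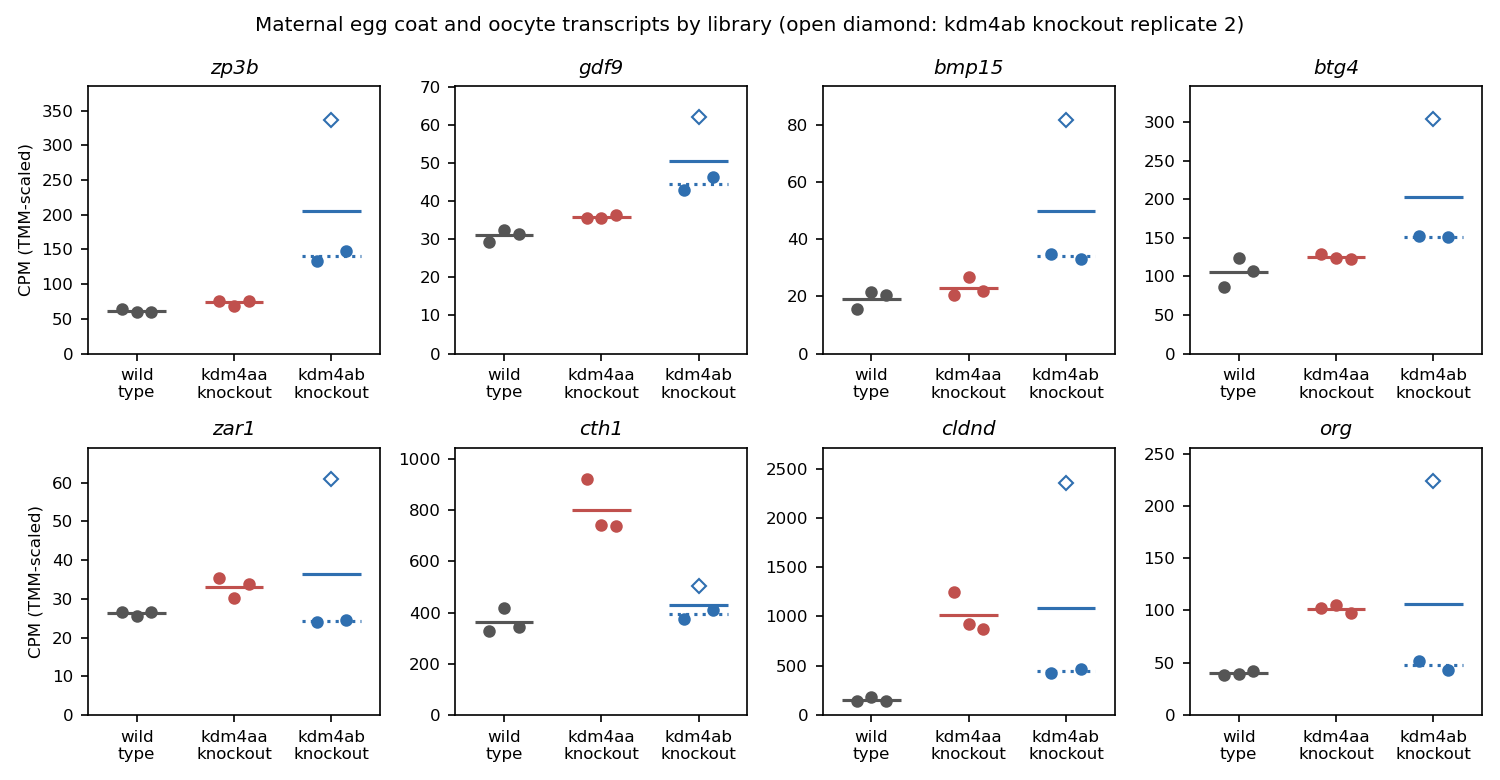
Level of each of the 8 transcripts in TMM-scaled CPM (linear axes starting at 0) in every library of wild type (grey), the kdm4aa knockout (red) and the kdm4ab knockout (blue). Solid lines are means over 3 libraries, open diamonds mark kdm4ab knockout replicate 2 and dotted lines are means of the other 2 kdm4ab knockout libraries. The diamond is the highest of its group in all 8 panels, and cth1 and cldnd stand above wild type in all 3 kdm4aa knockout libraries.

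The egg coat message zp3b (ENSDARG00000039828) had its highest levels in the kdm4ab knockout. It encodes a zona pellucida glycoprotein, one of the proteins that build the envelope around the fish egg. Its level was 64.3, 59.1 and 59.9 CPM in wild type, then 75.7, 69.1 and 75.9 CPM in the kdm4aa knockout, and 133, 336 and 148 CPM in the kdm4ab knockout. The 3 genotypes did not overlap, with wild type lowest and the kdm4ab knockout highest, and replicate 2 was far above the other libraries of its group. Against wild type zp3b rose in the kdm4ab knockout by 1.75 on the log2 scale (SE 0.328, adjusted p 0.00935), or 3.37-fold, and by 1.205 without replicate 2 (SE 0.0916, adjusted p 1.08e-08). Leaving out wild type replicate 3 ended that call (adjusted p 0.0506), as did a fit of only the kdm4ab knockout and wild type (adjusted p 0.0536). In the kdm4aa knockout the log2 difference from wild type was 0.27 (SE 0.319, adjusted p 0.735), and it passed with the same value only where kdm4ab knockout replicate 2 was left out, given little weight or not in the fit (adjusted p 0.0131 without it). The zona pellucida genes form a family of similar copies, so reads shared between copies may have been assigned in ways the counts do not show.

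The oocyte growth factors gdf9 and bmp15 had the same order of genotype means at smaller size. Both encode secreted members of the TGF-beta family that the oocyte sends to the follicle cells around it. The level of gdf9 (GDF9, ENSDARG00000003229) was 29.2, 32.5 and 31.4 CPM in wild type, then 35.6, 35.5 and 36.3 CPM in the kdm4aa knockout, and 42.8, 62.2 and 46.4 CPM in the kdm4ab knockout. Again the 3 genotypes did not overlap. The rise of gdf9 in the kdm4ab knockout was 0.70 on the log2 scale (SE 0.168, adjusted p 0.0236), and 0.53 without replicate 2 (SE 0.103, adjusted p 0.000414). For gdf9 the kdm4aa knockout value was 0.21, with an adjusted p of 0.571, and of 0.0775 without the deviating library.

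The level of bmp15 (ENSDARG00000037491) was 15.7, 21.6 and 20.4 CPM in wild type, then 20.5, 26.8 and 22.0 CPM in the kdm4aa knockout, and 34.8, 81.9 and 33.2 CPM in the kdm4ab knockout. Wild type and the kdm4aa knockout overlapped, and all 3 kdm4ab knockout libraries lay above both. In that knockout bmp15 rose by 1.38 on the log2 scale (SE 0.354, adjusted p 0.0312), and by 0.82 without replicate 2 (SE 0.144, adjusted p 0.000151). For the kdm4aa knockout the log2 difference was 0.26 (adjusted p 0.764). The calls of gdf9 and bmp15 in the kdm4ab knockout were each lost on leaving out any 1 of the wild-type or kdm4aa knockout libraries, with adjusted p of 0.0511 to 0.107 for gdf9 and 0.0561 to 0.129 for bmp15. Both were also lost in a fit of only the kdm4ab knockout and wild type.

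The RNA regulator btg4 had its highest levels in the kdm4ab knockout. The level of btg4 (BTG4, ENSDARG00000035171), which in mouse brings maternal messages to the CCR4-NOT deadenylase, was 86.6, 123 and 107 CPM in wild type. It was 129, 124 and 123 CPM in the kdm4aa knockout and 152, 304 and 151 CPM in the kdm4ab knockout. All kdm4ab knockout libraries lay above all others, while wild type and the kdm4aa knockout met at 123 CPM. For the kdm4ab knockout btg4 stood just outside the threshold, with a log2 difference of 0.94 (SE 0.279, adjusted p 0.0515). It passed without replicate 2, at 0.52 (SE 0.113, adjusted p 0.00101). The corresponding difference in the kdm4aa knockout was 0.25 (adjusted p 0.714, and 0.0565 without that library).

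For zar1 the direction in the kdm4ab knockout rested on 1 library. Zar1 is an oocyte RNA-binding protein, needed for egg formation in zebrafish. The level of zar1 (ZAR1, ENSDARG00000019706) was 26.5, 25.6 and 26.6 CPM in wild type, then 35.3, 30.1 and 33.8 CPM in the kdm4aa knockout, and 23.9, 61.0 and 24.4 CPM in the kdm4ab knockout. The 3 kdm4aa knockout libraries lay above wild type, whereas in the kdm4ab knockout replicate 2 lay above and the other 2 libraries below all wild-type libraries. The log2 difference from wild type in the kdm4ab knockout was 0.47 with all libraries (adjusted p 0.377) and −0.11 without replicate 2 (adjusted p 0.419). For the kdm4aa knockout it was 0.33 (SE 0.343, adjusted p 0.679), and zar1 rose there in the fit without kdm4ab knockout replicate 2, by 0.34 (SE 0.100, adjusted p 0.0105).

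Of the 8 transcripts cth1 gave the call that held under most settings in the kdm4aa knockout. It encodes a CCCH zinc finger protein of the tristetraprolin family, whose members bind AU-rich messages. The level of cth1 (ENSDARG00000057328) was 329.8, 419 and 345 CPM in wild type, then 919.8, 741 and 739 CPM in the kdm4aa knockout, and 377, 502 and 409 CPM in the kdm4ab knockout. The lowest kdm4aa knockout library was above every library of the other genotypes, and wild type and the kdm4ab knockout overlapped. The group means were 365 ± 47.8, 800.0 ± 104 and 429 ± 65.1 CPM (SD, n = 3 each). Its rise in the kdm4aa knockout was 2.19-fold, by 1.13 on the log2 scale (SE 0.169, adjusted p 0.00532), and by 1.14 without kdm4ab knockout replicate 2. It was called in all 16 alternative fits, with adjusted p of 8.8e-08 to 0.0418. Against this stood a log2 difference of 0.24 in the kdm4ab knockout (SE 0.167, adjusted p 0.366), or 0.11 without replicate 2 (adjusted p 0.433).

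The claudin message cldnd had the largest fitted fold of the 8 against wild type in both knockouts, with all 9 libraries and with 8. Claudins are membrane proteins of tight junctions, and cldnd is the zebrafish claudin d. The level of cldnd (ENSDARG00000006580) was 140.4, 178 and 145 CPM in wild type, then 1250.1, 922 and 871 CPM in the kdm4aa knockout, and 431, 2357 and 465 CPM in the kdm4ab knockout. Every knockout library lay above every wild-type library, and replicate 2 of the kdm4ab knockout lay above all others. The rise of cldnd in the kdm4aa knockout was 6.56-fold, by 2.71 on the log2 scale (SE 0.632, adjusted p 0.0334), and in the kdm4ab knockout by 2.81 (SE 0.635, adjusted p 0.0194). Without kdm4ab knockout replicate 2 the rises were 2.72 (SE 0.126, adjusted p 1.88e-11) and 1.54 (SE 0.130, adjusted p 4.16e-08), the latter a 2.90-fold change in place of 7.01-fold. The kdm4aa knockout call was lost on leaving out any 1 of the wild-type or kdm4aa knockout libraries (adjusted p 0.0897 to 0.141) at log2 values of 2.54 to 2.83. That of the kdm4ab knockout was lost on leaving out any 1 of the wild-type libraries (adjusted p 0.0688 to 0.0886). It was also lost in a fit of only the kdm4ab knockout and wild type.

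The last member, org, is named for oogenesis (oogenesis-related gene). The level of org (ENSDARG00000076474) was 38.7, 39.2 and 41.9 CPM in wild type, then 102.5, 105.5 and 97.3 CPM in the kdm4aa knockout, and 52.1, 223 and 43.2 CPM in the kdm4ab knockout. The kdm4aa knockout libraries were close to each other and well above wild type, at 102 ± 4.16 against 39.9 ± 1.75 CPM (SD, n = 3). With all libraries in the fit the log2 difference of 1.35 had an SE of 0.553 and did not pass (adjusted p 0.195). The same difference, at an SE of 0.0924, passed without kdm4ab knockout replicate 2 (adjusted p 3.01e-09). The log2 difference of org in the kdm4ab knockout was 1.41 (adjusted p 0.117) and 0.26 without replicate 2 (SE 0.102, adjusted p 0.043). In the kdm4ab knockout org was called in 2 of 16 alternatives. It did not pass under voom weights (adjusted p 0.0637) or under the replicate block without replicate 2 (adjusted p 0.0601).

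**Figure D2:**
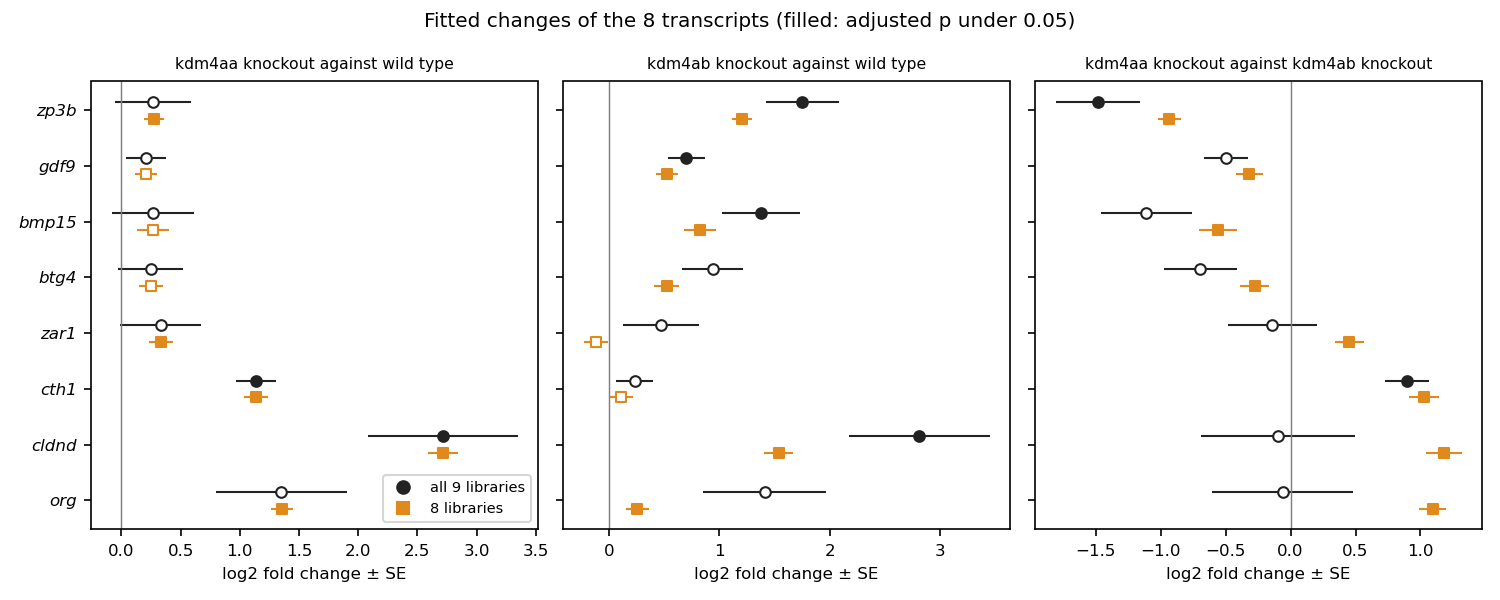
Fitted log2 fold change ± SE of the 8 transcripts in the 3 comparisons, with all 9 libraries (black circles) and without kdm4ab knockout replicate 2 (orange squares). Filled symbols have an adjusted p under 0.05, and leaving out that library narrows the error in every row and turns zar1 below 0 in the kdm4ab knockout and zar1, cldnd and org above 0 between the knockouts.

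Set against each other with all 9 libraries, the knockouts differed in 2 of the 8 messages, near the share over all genes. The kdm4aa knockout had more cth1 (log2 0.90, SE 0.168, adjusted p 0.00879) and less zp3b (log2 −1.48, SE 0.326, adjusted p 0.0165), 2 of 8, where 18.2% of tested genes were called. The cth1 difference was called in all 16 alternatives, and that of zp3b was lost on leaving out any 1 kdm4aa knockout library (adjusted p 0.0649 to 0.0714). The zp3b difference was also lost in a fit of only the 2 knockouts. By the libraries, cth1 lay higher in all kdm4aa knockout libraries, and zp3b, gdf9, bmp15 and btg4 lay lower, without overlap, which held in either direction for 40.4% of tested genes. Without kdm4ab knockout replicate 2 the 8 transcripts split evenly. On this footing zar1, cth1, cldnd and org were higher in the kdm4aa knockout, by 0.45, 1.03, 1.18 and 1.09 on the log2 scale, with adjusted p of 0.00286, 1.19e-06, 1.58e-06 and 1.65e-07. In turn zp3b, gdf9, bmp15 and btg4 were higher in the kdm4ab knockout, with log2 values of −0.93, −0.32, −0.56 and −0.28 and adjusted p of 2.25e-07, 0.0154, 0.00369 and 0.0498. In that fit 52.8% of tested genes were called in either direction, beside these 8 calls of 8.

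Summed over the 8 transcripts, wild type held 731, 899 and 777 CPM, against 2569, 2055 and 1998 CPM for the kdm4aa knockout. The kdm4ab knockout held 1246, 3928 and 1320 CPM. All knockout libraries lay above all wild-type libraries. With cldnd left out the sums were 591, 720.5 and 633 CPM in wild type, then 1319, 1132 and 1127 CPM in the kdm4aa knockout and 816, 1571 and 855 CPM in the kdm4ab knockout, again without overlap between wild type and either knockout.

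The library that stood apart was also the one richest in these messages. Its level exceeded the mean of kdm4ab knockout replicates 1 and 3 for 8 of 8 transcripts, from 1.28 times for cth1 to 5.27 times for cldnd, with a median of 2.41. Among 11240 tested genes with at least 5 CPM in those 2 libraries the median ratio was 0.81, and 40.1% exceeded 1. Egg coat genes exceeded 1 in 16 of 18 cases (median 2.96) and oocyte and egg factors in 26 of 28 (median 2.06), lists that both include members. Genes of the clearance machinery list, which also holds genes that stabilise messages and here includes btg4, did so in 11 of 38. Their median of 0.752 was near that over all genes. Germ plasm and primordial germ cell genes, messages that are also maternal, exceeded 1 in 11 of 16 cases (median 1.11). Among them 12.5% reached a ratio of 2, near the 14.7% of all genes so compared. The higher levels in this library were therefore not shared by all maternal messages. For cldnd, zp3b, gdf9, bmp15, btg4 and org, 6 of 8, replicates 1 and 3 of the kdm4ab knockout also lay above every wild-type library, as they did for 34.4% of tested genes, so the higher levels of these 6 in that genotype were present without the deviating library.

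Beyond the members, 20 other egg coat genes, encoding zona pellucida proteins, were tested. Of these 1 rose in the kdm4aa knockout, zp3d.1 (117 ± 5.12 to 175 ± 4.28 CPM, log2 0.58, adjusted p 0.0363), and 13 had fitted values above 0. That 1 of 20 was near the 4.33% of all tested genes that rose. In the kdm4ab knockout 4 of 20 rose, beside 8.97% of all tested genes, and 17 had fitted values above 0. These 4 were zp3c (91.7 ± 6.94 to 158 ± 30.6 CPM, log2 0.78, adjusted p 0.0132), zp3d.2 (4.15 ± 1.21 to 17.9 ± 10.6 CPM, 4.29-fold, adjusted p 0.0134), zp3e (38.6 ± 3.17 to 133 ± 106 CPM, log2 1.79, adjusted p 0.0315) and zp3.2, named after its values were seen (60.9 ± 2.15 to 176 ± 134 CPM, log2 1.53, adjusted p 0.047). The list median was 0.08 in the kdm4aa knockout and 0.86 in the kdm4ab knockout, and the latter was 0.16 without replicate 2. Without that library 7 rose and 2 fell in the kdm4aa knockout, and 6 rose in the kdm4ab knockout, among them zp3c, zp3d.2, zp3e and zp3.2 at log2 values of 0.62, 1.51, 0.91 and 0.69. Of all tested genes 23.3% and 25.3% then rose, and the 6 of 20 in the kdm4ab knockout were near that share. Of 16 alternatives, these 4 were called in 12, 13, 8 and 7, and zp3d.1 in the kdm4aa knockout in 7. Some egg coat genes, named after their values were seen, were lower, without a call in the fit of all 9 libraries. Every knockout library lay below every wild-type library for zpcx. Its means were 28.9, 21.2 and 22.8 CPM in wild type, the kdm4aa knockout and the kdm4ab knockout. For zp2.2, zp2.3, zp2.5 and zp2.6 this held in the kdm4aa knockout, whereas kdm4ab knockout replicate 2 was their highest library.

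Most of 22 other oocyte and egg factors had fitted values above 0, 18 in the kdm4aa knockout and 19 in the kdm4ab knockout, as did 9481 and 9228 of the 18998 genes tested. In the kdm4aa knockout 2 rose and 1 fell, beside 8.88% of all tested genes called in either direction, and in the kdm4ab knockout 3 rose and none fell, beside 17.0%. PABPC1L (ENSDARG00000002597), the poly-A binding protein of oocytes, rose from 82.5 ± 2.59 to 136 ± 13.8 CPM (log2 0.72, adjusted p 0.00942), and the beta-tubulin message tubb4b rose from 218 ± 8.70 to 431 ± 36.7 CPM (log2 0.98, adjusted p 0.014). In contrast figla, a transcription factor of oocytes that in mouse activates the zona pellucida genes, fell from 22.4 ± 1.35 to 5.74 ± 1.30 CPM (log2 −1.96, adjusted p 0.017). The kdm4ab knockout had rises of tubb4b (371 ± 95.1 CPM, log2 0.76, adjusted p 0.023), the zinc finger gene zglp1 (10.1 ± 1.34 to 40.8 ± 35.5 CPM, log2 2.01, adjusted p 0.0333) and, named after its values were seen, the oocyte histone-message binding gene slbp2 (43.3 ± 11.5 to 108 ± 56.9 CPM, log2 1.32, adjusted p 0.0372). There figla stood at 25.4 ± 14.6 CPM (log2 0.18, adjusted p 0.773), and its log2 difference turned to −0.40 without replicate 2 (adjusted p 0.0469). Between the knockouts figla was lower in the kdm4aa knockout, in 3 of 3 libraries (log2 −2.14, adjusted p 0.00732). Of 16 alternatives, the calls in the kdm4aa knockout held in 13 for PABPC1L, 10 for tubb4b and 9 for figla, and those in the kdm4ab knockout in 12 for tubb4b and 8 each for zglp1 and slbp2. The list medians were 0.29 and 0.47, and 0.29 and 0.17 without that library, when 13 rose and 2 fell in the kdm4aa knockout and 6 rose and 3 fell in the kdm4ab knockout. In that fit 23.3% and 25.3% of all tested genes rose, so the 6 of 22 in the kdm4ab knockout were near the share over all genes. Fitted values were then above 0 for 18 and 16 of 22, and for 9902 and 10031 of 19882 genes tested. ZAR1L (ENSDARG00000055973), named after its values were seen, was at 21.8, 27.0 and 26.7 CPM in wild type. It was lower in the kdm4aa knockout, at 15.5, 18.5 and 14.0 CPM. In the kdm4ab knockout it was at 14.7, 48.2 and 12.6 CPM, above wild type only in replicate 2.

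**Figure D3:**
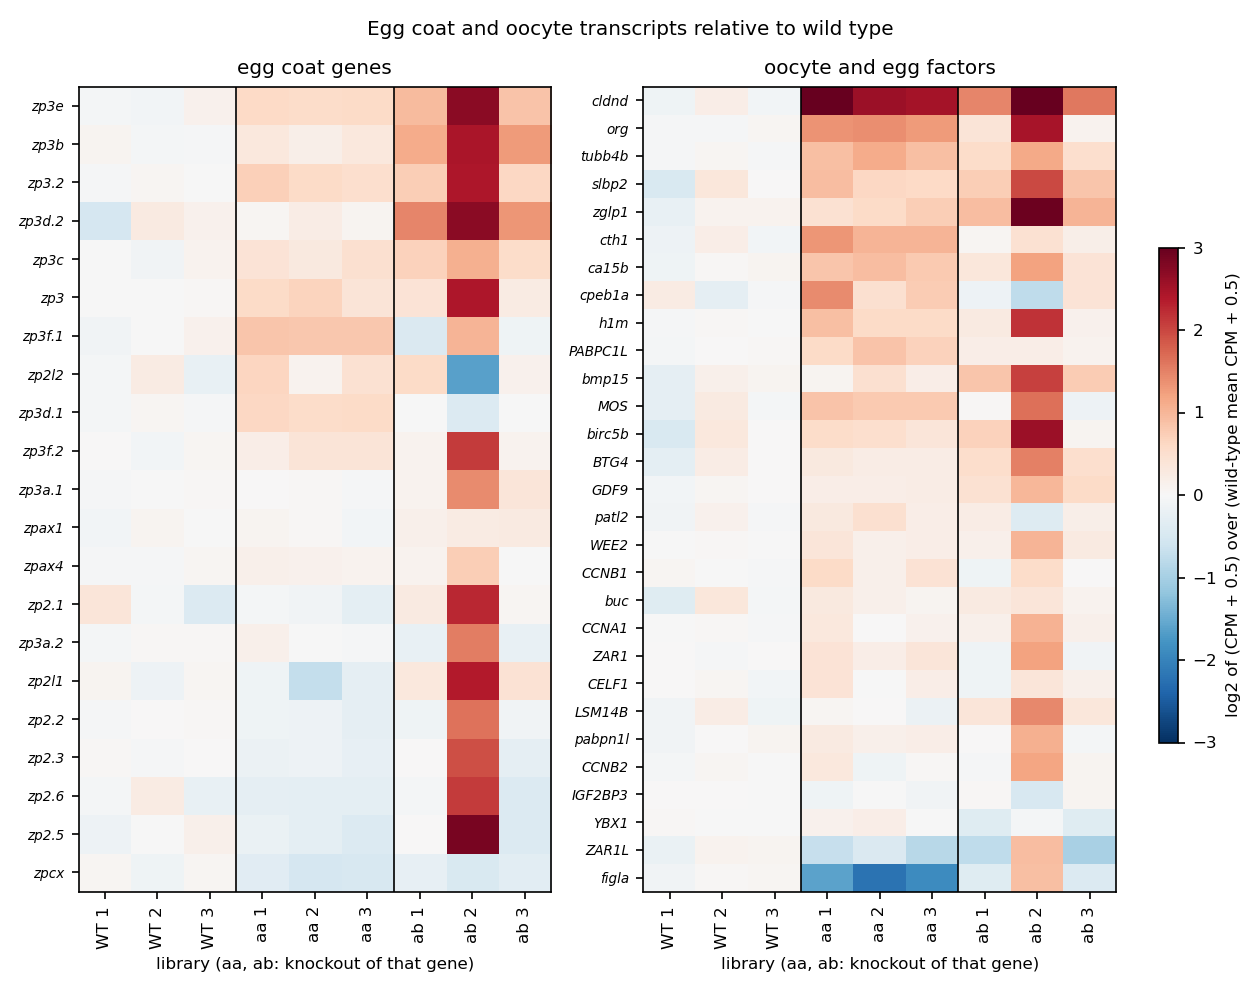
Each cell is the log2 ratio of (CPM + 0.5) in 1 library to (the wild-type mean CPM + 0.5), for egg coat genes (left) and oocyte and egg factors (right), members included; WT, aa and ab are wild type, the kdm4aa knockout and the kdm4ab knockout, and values past 3 or below −3 take the end colour. The column of kdm4ab knockout replicate 2 is the darkest red for most genes, cldnd is red in all knockout libraries, and figla is blue in the 3 kdm4aa knockout libraries.

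Genes listed for the machinery that removes messenger RNA were called about as often as genes at large. The list also holds RNA-binding genes that stabilise messages, such as igf2bp1, so its counts and medians cover more than removal. Of 38 tested genes other than btg4, 2 rose and 3 fell in the kdm4aa knockout, beside 8.88% of all tested genes called in either direction, and 2 rose and 4 fell in the kdm4ab knockout, beside 17.0%. The list medians were −0.04 and −0.32. Without kdm4ab knockout replicate 2, 9 rose and 9 fell in the kdm4aa knockout and 7 rose and 14 fell in the kdm4ab knockout, beside 46.8% and 49.5% of all tested genes. The m6A reader YTHDF2 (ENSDARG00000014498), which takes part in clearing maternal messages in zebrafish, had a level of 214 ± 14.6 CPM in wild type, with 144 ± 3.45 and 143 ± 14.2 CPM in the kdm4aa and kdm4ab knockouts. All knockout libraries lay below all wild-type libraries, and YTHDF2, named after its values were seen, fell in both (log2 −0.57, adjusted p 0.0246, and log2 −0.58, adjusted p 0.015). The gene tob1b, of the BTG/Tob family that binds CCR4-NOT, fell from 162 ± 8.37 CPM to 97.8 ± 4.46 CPM in the kdm4aa knockout (log2 −0.73, adjusted p 0.0223) and 99.97 ± 17.6 CPM in the kdm4ab knockout (log2 −0.69, adjusted p 0.0173).

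Other genes of this list passed the test in 1 knockout. The gene cnot6b, a deadenylase subunit of CCR4-NOT, fell in the kdm4aa knockout from 158 ± 24.0 to 50.5 ± 1.65 CPM (log2 −1.64, SE 0.164, adjusted p 0.000941) and stood at 148 ± 21.9 CPM in the kdm4ab knockout (log2 −0.09, adjusted p 0.733). Its fall was called in all 16 alternatives, and the knockouts differed (log2 −1.55, adjusted p 0.00076). The decapping enzyme gene DCP2 (ENSDARG00000104242) rose in the kdm4ab knockout from 22.3 ± 1.44 to 42.5 ± 7.19 CPM (log2 0.93, adjusted p 0.00735), and in the kdm4aa knockout it was at 33.5 ± 1.90 CPM (log2 0.59, adjusted p 0.062), with a difference between the knockouts of −0.34 that did not pass (adjusted p 0.188). In turn igf2bp1, an RNA-binding protein that stabilises messages, fell in the kdm4ab knockout from 153 ± 1.22 to 68.7 ± 19.4 CPM (log2 −1.16, adjusted p 0.00742). With kdm4aa knocked out it was at 119 ± 6.23 CPM (log2 −0.36, adjusted p 0.356), higher than in the kdm4ab knockout (log2 0.79, adjusted p 0.0294). The remaining calls, named after their values were seen, were rises of the poly-A ribonuclease parn (log2 0.65, adjusted p 0.0448) and the decapping cofactor DCP1B (log2 0.88, adjusted p 0.0429) in the kdm4aa knockout, and a rise of btg3 (log2 0.87, adjusted p 0.0354) and a fall of CNOT11 (log2 −0.56, adjusted p 0.0309) in the kdm4ab knockout. These last 4 calls held in 6 of 16 alternatives for parn, 7 for DCP1B, 8 for btg3 and 6 for CNOT11. The calls of YTHDF2 and tob1b in the kdm4aa knockout held in 8 and 9 of 16, with adjusted p up to 0.127 and 0.114.

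**Figure D4:**
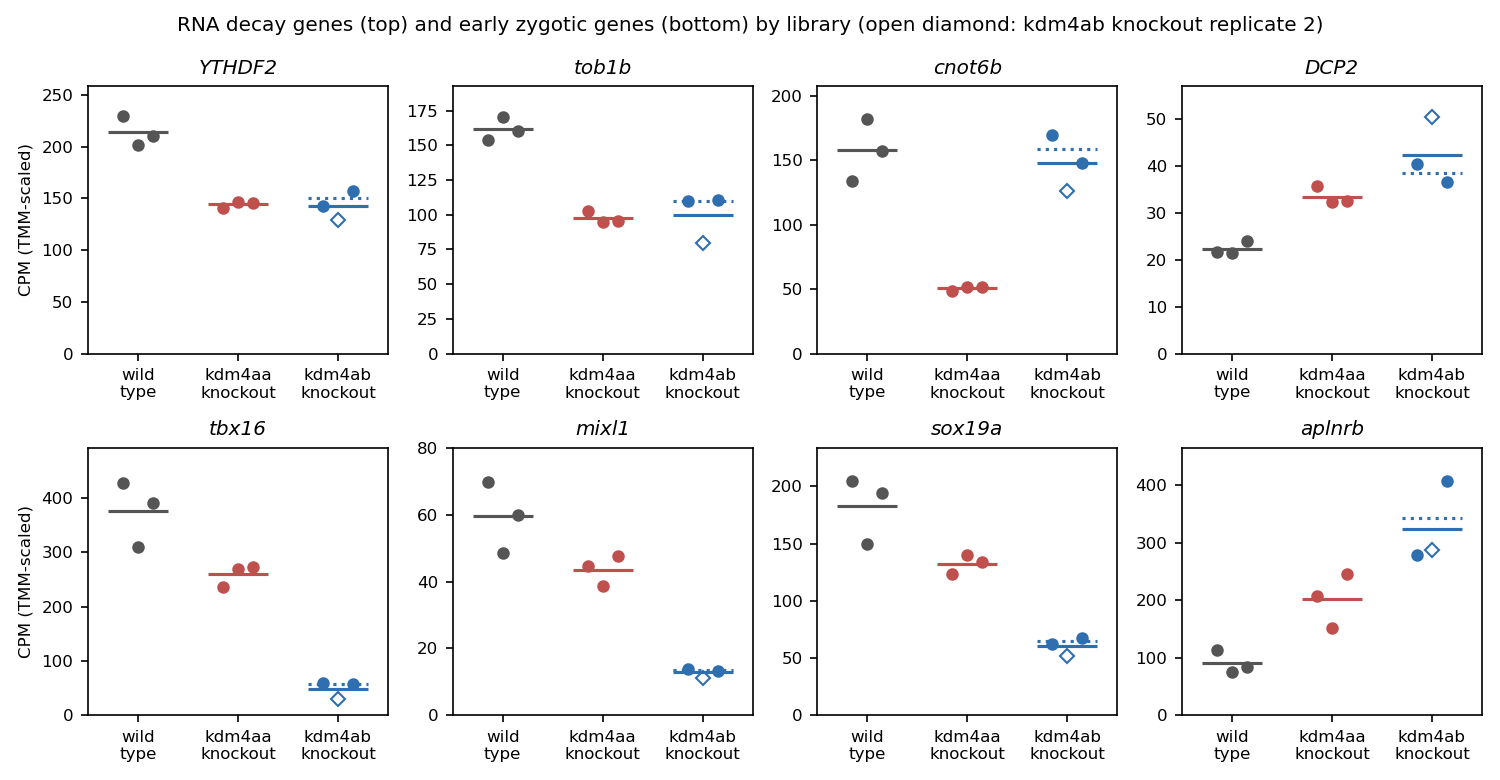
TMM-scaled CPM by library of 4 RNA clearance genes (top) and 4 early zygotic genes (bottom), on linear axes starting at 0, with colours, lines and diamonds as in the plot of the 8 transcripts by library. YTHDF2 and tob1b are below wild type in all knockout libraries and cnot6b in the kdm4aa knockout, while DCP2 is above wild type in all knockout libraries. The 4 clearance genes were picked among those called, YTHDF2 after its values were seen, so they do not show the list as a whole. The genes tbx16, mixl1 and sox19a are lowest in the kdm4ab knockout.

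Markers of the early embryo also differed between the genotypes, and their part in the levels of the maternal messages was not tested. Of 23 tested genes expressed from the blastula to the gastrula, 9 fell and 1 rose in the kdm4ab knockout, with a median log2 change of −1.60, and 1 fell and 1 rose in the kdm4aa knockout, with a median of −0.25. Over all tested genes 17.0% and 8.88% were called in either direction, so the 2 of 23 in the kdm4aa knockout were near the share over all genes. The mesoderm regulator tbx16 was at 376 ± 61.0, 259 ± 20.9 and 48.0 ± 16.5 CPM in wild type, the kdm4aa knockout and the kdm4ab knockout (log2 −2.97 in the latter, adjusted p 0.00052). The homeobox gene mixl1 fell to 12.8 ± 1.42 from 59.6 ± 10.7 CPM (log2 −2.22, adjusted p 0.000347) and sox19a to 60.6 ± 7.95 from 183 ± 29.6 CPM (log2 −1.60, adjusted p 0.000761) in the kdm4ab knockout. Their log2 values in the kdm4aa knockout were −0.54, −0.45 and −0.47 for tbx16, mixl1 and sox19a, with adjusted p of 0.283, 0.184 and 0.132. In that knockout ved, named after its values were seen, stood at 4.28 ± 1.22 CPM against 20.2 ± 4.36 CPM in wild type. The lower level of ved there was called in all 16 alternatives, at log2 values of −2.38 to −2.02. The kdm4ab knockout also had less ved, at 6.58 ± 2.18 CPM, called in 13 of 16 alternatives at log2 values of −1.86 to −1.37. The apelin receptor gene aplnrb rose in both, from 90.8 ± 20.6 to 201 ± 46.7 CPM (log2 1.15, adjusted p 0.0246) in the kdm4aa knockout and to 324 ± 72.0 CPM (log2 1.84, adjusted p 0.00246) in the kdm4ab knockout. Without the deviating library the counts were 10 lower and 2 higher of 24 in the kdm4aa knockout and 17 lower and 2 higher in the kdm4ab knockout, beside 46.8% and 49.5% of all tested genes called, the former near the list's own share. Summed levels of the list, in which 1 to 10 of 26 genes were at 0 in a library, ran from 4747 to 5451 CPM in wild type, 4491 to 4799.8 CPM in the kdm4aa knockout and 2847 to 4069 CPM in the kdm4ab knockout. The largest parts of that sum, named after their values were seen, were nanog, pou5f3 and sox19b. Of these nanog was among the 9 genes that fell in the kdm4ab knockout, a call that held in 8 of 16 alternatives. In wild type, the kdm4aa knockout and the kdm4ab knockout nanog was at 2407 ± 152, 2213 ± 98.2 and 1568 ± 260 CPM. In the same order pou5f3 was at 1106 ± 90.8, 947 ± 32.7 and 644 ± 261 CPM. For sox19b the levels were 487 ± 66.4, 496 ± 0.936 and 621 ± 82.2 CPM. The counts do not divide such messages into maternal copies and the embryo's own.

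Markers of later stages summed to low levels, and some of them rose. Summed over 21 genes of segmentation and later stages, wild type held 4.99 to 6.39 CPM, the kdm4aa knockout 7.03 to 9.30 CPM and the kdm4ab knockout 7.94 to 21.4 CPM, with 8 to 17 of 21 genes at 0 in a library and the muscle gene myf5, the globin hbae1.1, the heart gene cmlc1 and the hatching enzyme gene ctslb at 0 in all 9. Of 8 later-stage genes tested, 1 rose in the kdm4aa knockout and 3 in the kdm4ab knockout, beside 4.33% and 8.97% of all tested genes, and none of the 8 fell. The muscle actin gene actc1a rose in both, from 0.0583 CPM in wild type to 2.27 ± 0.846 CPM (adjusted p 0.017) and 2.56 ± 1.17 CPM (adjusted p 0.00996) in the kdm4aa and kdm4ab knockouts. In the kdm4ab knockout the pigment cell gene DCT (ENSDARG00000006008) rose from 1.503, 1.66 and 2.19 CPM to 4.70, 12.7 and 3.63 CPM (adjusted p 0.0319), and the neural gene neurog1 rose from 0.174 ± 0.0737 to 2.39 ± 1.70 CPM (adjusted p 0.0201). Another neural gene, ELAVL3 (ENSDARG00000014420), named after its values were seen, went the other way. Wild type had 2.15 ± 0.522 CPM of it, against 0.936 ± 0.274 with kdm4aa and 0.383 ± 0.332 with kdm4ab knocked out. For ELAVL3 every knockout library lay below every wild-type library, without a call in the fit of all 9 libraries. Without kdm4ab knockout replicate 2 the counts were 3 higher and 1 lower of 9 in each knockout. In that fit 46.8% and 49.5% of all tested genes were called in either direction, so these counts were near the share over all genes. The part of these genes in the levels of the maternal messages was not tested.

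Of 8 matched markers of ovarian follicle cells, CYP17A1 (ENSDARG00000033566) made up nearly the whole sum of 129 to 143 CPM in wild type, 182 to 191 CPM in the kdm4aa knockout and 79.4 to 127 CPM in the kdm4ab knockout. The markers gsdf, amh, star and fshr reached at most 0.403 CPM in any library, and hsd3b1 at most 0.360 CPM. The gonadotropin receptor gene lhcgr was at 1.45, 1.11 and 1.73 CPM in wild type, at 0.521, 0.479 and 0.338 CPM in the kdm4aa knockout and at 0.726, 3.29 and 0.219 CPM in the kdm4ab knockout, highest in replicate 2. Of 4 follicle cell markers tested, 1 fell in each knockout, beside 8.88% and 17.0% of all tested genes called in either direction. This was inha, which was at 0.362 to 0.488 CPM in wild type, or 14 to 22 counts, and at 0 in every knockout library. Without replicate 2, 1 rose and 2 fell in the kdm4aa knockout and 2 fell in the kdm4ab knockout. In that fit 46.8% and 49.5% of all tested genes were called in either direction, and the 2 of 4 in the kdm4ab knockout were near that share. The part of follicle cell RNA in the levels of the maternal messages was not tested.

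Of 16 germ plasm and primordial germ cell genes, messages that are also maternal, 5 rose in the kdm4aa knockout and 4 in the kdm4ab knockout, where 4.33% and 8.97% of all tested genes rose. Without kdm4ab knockout replicate 2, 9 rose and 2 fell in the kdm4aa knockout and 9 rose and 3 fell in the kdm4ab knockout, beside 23.3% and 25.3% of all tested genes higher. With all 9 libraries the fitted values were above 0 for 12 of 16 in each knockout. Among those that rose in both was NANOS3 (ENSDARG00000068255), at 8.85 ± 1.88, 32.2 ± 2.22 and 20.1 ± 2.77 CPM in wild type, the kdm4aa knockout and the kdm4ab knockout. The genes h1m, buc and ca15b, named here for this overlap, are also among the oocyte and egg factors, so the lists are not separate.

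The called members each had neighbours in profile over the 8 libraries other than kdm4ab knockout replicate 2, by Pearson's r of log2(CPM + 1) among tested genes with a symbol and a mean of at least 5 CPM in 1 group. The genes nearest to zp3b were THBS4 and ACOT11 (r 0.997 each) and clmna (r 0.994). Those nearest to gdf9 were RTKN (0.996), prdm2a (0.993) and ZNF592 (0.991), and those nearest to bmp15 were ska1 (0.984), TSHZ1 (0.983) and si:dkey-20f20.4 (0.98). For cth1 they were cep135 and SEPTIN9 (0.991 each) and ERLEC1 (0.989), and for cldnd SLC25A10 (0.997), OGN (0.994) and BIRC5 (0.993). The 8 libraries fall into 3 genotypes, so a high r here says mainly that the 3 genotype means lie in the same order and spacing. These genes are on none of the lists used here. As an example of the likeness, ACOT11 (ENSDARG00000042122) was at 6.27 ± 0.325, 8.09 ± 0.0995 and 16.3 ± 3.22 CPM in wild type, the kdm4aa knockout and the kdm4ab knockout, the order of zp3b. The likeness does not extend to kdm4ab knockout replicate 2 for the neighbours of zp3b, gdf9 and cth1. In that library zp3b and gdf9 were the highest of their group, whereas THBS4, ACOT11 and clmna, at 5.61, 12.8 and 2.15 CPM, and RTKN, prdm2a and ZNF592, at 0, 0 and 2.49 CPM, were the lowest of theirs. There cth1 was also the highest of its group, at 502 CPM. Its neighbours cep135 and SEPTIN9, at 27.8 and 75.3 CPM, were the lowest of theirs, and ERLEC1, at 297 CPM, lay between the other libraries of its group.

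These values are levels at a single sampling of each embryo group. They do not measure how fast a message was removed or how much of it the egg had held. The libraries were made from poly-A RNA, so a level may also depend on the poly-A tail of a message, which was not measured. TMM-scaled CPM is relative to the other messages of a library, so the amount of a message per embryo was not measured either. Whether replicates are separate clutches is not stated in the labels, so each p refers to the spread among these libraries, part of which may be technical.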

How the data were processed

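Poly-A RNA of zebrafish embryos was sequenced in 9 libraries, 3 per genotype. The deposited table holds whole-number counts per Ensembl gene and library, not normalized, made by the authors. GRCz11 and danRer11 are the builds in the submitters' processing notes. Aligner, counter and strand setting: not given in the sources used here, so reads of similar copies and of overlapping or antisense genes cannot be told apart. After filterByExpr and TMM scaling, edgeR 4.0.16 (R 4.3.3) ran its two-sided quasi-likelihood F-test with 1 mean per group and a spread shared by all 9 libraries. Calls were made at a Benjamini-Hochberg adjusted p under 0.05, adjusting across the whole table. Genes without a count in any library numbered 5076. Each SE is approximate: the size of the log2 value over the root of F. No pair of replicates agreed within sampling noise (chi-square of at least 9.58 per gene). Symbols covered 29201 of 32520 identifiers. The fit was also run on simulated counts, with the same spread for every gene and no library that stood apart. That run does not show how the fit behaves with kdm4ab knockout replicate 2.

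The members and lists were chosen with earlier results of these data known. The text names the 8 members, the targeted genes, up to 4 other genes with the smallest p per list, and the 3 nearest profiles of each called member; exceptions are marked. Not every list name matched: 8 of 16 follicle cell, 21 of 30 later stage and 26 of 31 blastula and gastrula names did. Alternatives were DESeq2 1.42.0, relative log expression size factors, no filter, fits of 2 groups, limma 3.58.1 voom with sample quality weights, a replicate block, leaving out each library, and, chosen after seeing the data, the block without kdm4ab knockout replicate 2.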

Additional observations from a re-analysis of the deposited data

Results flagged for a closer look

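For 2 of the 8 transcripts the difference between the knockouts itself passed the test with all 9 libraries. This is near the 18.2% of all tested genes called in that comparison. The log2 difference of the kdm4aa knockout from the kdm4ab knockout was −1.48 for zp3b, at 73.6 ± 3.89 against 206 ± 113 CPM (SD, n = 3), and 0.90 for cth1, at 800.0 ± 104 against 429 ± 65.1 CPM. Both kept their direction without kdm4ab knockout replicate 2, at −0.93 and 1.03, and in each case all libraries of one knockout lay on one side of the other. With all 9 libraries that held for 40.4% of tested genes. The zp3b call was lost on leaving out any 1 kdm4aa knockout library, and in a fit of only the 2 knockouts.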

How the results depend on the processing

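Over 384 values of the 8 transcripts under 16 alternatives, 303 kept direction and side of the threshold, 32 lost the call, 34 gained it and 15 changed sign; for 76 other gene results the counts of 1216 were 931, 191, 80 and 14. Counts of called genes are given for the kdm4aa knockout, the kdm4ab knockout (each against wild type) and the 2 knockouts against each other, in that order, with members in the same order. With all 9 libraries 1687, 3232 and 3457 genes and 2, 4 and 2 members were called; DESeq2 called 3017, 5251 and 5351 genes. Fits of only the 2 groups compared, by edgeR, called 9290, 1092 and 1259 genes and 5, 0 and 1 members. For the 0, 5 members had an unadjusted p under 0.05. DESeq2, which was run only on all 9 libraries, called 5 members in the kdm4ab knockout. Voom with sample quality weights, in which kdm4ab knockout replicate 2 weighed 0.0204 against 1.17 to 3.11, called 9863, 10034 and 10096 genes and 7, 5 and 8 members. Leaving out 1 library gave 569 to 9306, 1219 to 9848 and 1462 to 10499 genes, and 1 to 5, 0 to 6 and 1 to 8 members; the highest gene counts came without kdm4ab knockout replicate 2, by construction a fit of fewer, more alike libraries. The 0 came without wild type replicate 3, where 5 members had an unadjusted p under 0.05.

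The replicate block called 765, 1807 and 2012 genes and 1, 3 and 2 members, and moved the median log2 of all genes to −0.12 and 0.10 in the latter 2 comparisons; together with leaving out kdm4ab knockout replicate 2 it called 9127, 9417 and 10009 genes and 6, 5 and 8 members. Correlations of deviations were −0.110 to 0.233 for same-numbered libraries and −0.214 to 0.173 for others, so the numbers are not taken to pair the samples.

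Most sign changes came under voom weights, without kdm4ab knockout replicate 2, and without it under the block. Under voom weights and under the last of these, in the kdm4ab knockout against wild type, the log2 values were −0.12 and −0.16 for zar1, −0.40 and −0.46 for figla, 0.044 and 0.089 for cnot6b, 0.050 and 0.087 for DCP1B, and −0.011 and −0.13 for DAZL. Leaving out 1 library gave −0.11 to 0.68, −0.40 to 0.39, −0.22 to 0.019, −0.27 to 0.074 and −0.020 to 0.43 for the same 5 genes. Between the knockouts they were 0.46 and 0.49 for zar1, 1.17 and 1.15 for cldnd and 1.06 and 1.09 for org, with −0.35 to 0.45, −0.45 to 1.18 and −0.41 to 1.09 on leaving out 1 library; the block alone gave 0.29 for cldnd and 0.24 for org. In the kdm4aa knockout zp3d.2 ran from −0.087 (without wild type replicate 1) to 0.30. The sign of cnot6b in the kdm4ab knockout also changed without wild type replicate 2 (log2 0.019). That of cldnd between the knockouts also changed without kdm4aa knockout replicate 3 (log2 0.016). Beyond the common dependence on kdm4ab knockout replicate 2 the cause was not tested. Among the 8 transcripts bmp15 had the lowest count, at 618 in wild type replicate 1. Whether depth limited any of these results was not tested.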
